A study of Homo sapiens with 15 samples.

Results

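The kinases ATM and ATR, the proteins that bring ATR to its substrates, and the checkpoint kinases and cell cycle switches below them were followed as 10 genes in LNCaP cells. The 10 genes, ATM, ATR, ATRIP, TOPBP1, CLSPN, CHEK1, CHEK2, CDC25A, CDC25C and WEE1, were chosen by name, and each had a row among the 17272 genes of the expression table. LNCaP is an established androgen-responsive line derived from a lymph node metastasis of a prostate carcinoma. All cells were kept for 2 days in medium with charcoal-stripped serum, which removes steroids, and were then given 1 nM of the synthetic androgen R1881 for 22 h. The 10 R1881 + DMSO libraries came from cells with the solvent DMSO, and the 5 R1881 + enzalutamide libraries from cells that also received 2 µM of enzalutamide, an antiandrogen. Both groups therefore carried androgen, and the comparison is one of blocked against unblocked androgen signalling. Polyadenylated RNA was sequenced to between 15830745 and 24316740 counted reads per R1881 + DMSO library and between 21188661 and 25416052 per R1881 + enzalutamide library.

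ATM is recruited to DNA breaks by the MRE11, RAD50 and NBN complex, whereas ATR, bound to its partner ATRIP, is recruited to stretches of exposed DNA covered by RPA at stalled replication forks. TOPBP1 switches ATR on, and claspin, the product of CLSPN, presents the kinase CHK1 (CHEK1) to it, while CHK2 (CHEK2) lies mainly below ATM. The checkpoint kinases restrain the phosphatases CDC25A and CDC25C, which remove the inhibitory phosphate that WEE1 places on cyclin-dependent kinases. Activity of these proteins is set largely by phosphorylation and degradation, which RNA levels do not measure. In bulk RNA, fewer cells of a kind, such as cells in S phase, and less RNA per cell cannot be told apart.

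The treatment and the cell line were checked first. All 5 androgen-induced genes examined were lower with enzalutamide, with a median log2 fold change of −3.56, and KLK3, which encodes prostate-specific antigen, went from 1588 ± 209 to 134 ± 7.66 CPM (reads per gene scaled by the depth of the library, mean ± SD). Of the luminal prostate markers, KRT8 and KRT18 were lower and FOLH1 and HOXB13 higher, and the lowest of their means in either treatment was 223 ± 11.6 CPM, for KRT18 with enzalutamide. Of 9 markers of other cell types, 2 had a row, COL1A1 and COL3A1, and their summed level went from 6.12 to 10.3 CPM with DMSO to 19.8 to 25.1 CPM with enzalutamide. The part of these transcripts in the results was not tested. The methods call the libraries biological replicates, but neither they nor the labels say whether libraries of a treatment came from separate cultures, so that p-values measure the spread between these libraries.

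Promoter sequence was examined because CDC25A, CLSPN and CDC25C, the genes that fell most, are expressed periodically in the cell cycle, and promoters of such genes are known for E2F sites, cell cycle homology regions (CHR) and CCAAT boxes. The 250 bases before each RefSeq start were searched on both strands (RefSeq, GRCh38.p14), and 9 of the 10 genes matched an entry, with 16 windows in all. WEE1 had no entry. The 4 stretches on which the description rests are given 5′ to 3′ on the strand of the gene, with the matches in capitals: the whole windows of CDC25A (chr3:48188418-48188667, minus strand) and CLSPN (chr1:35769979-35770228, minus strand), and the 30 bases around the CHR match of CDC25C (chr5:138331817-138331846, minus strand) and of ATM (chr11:108223035-108223064, plus strand).
CDC25A: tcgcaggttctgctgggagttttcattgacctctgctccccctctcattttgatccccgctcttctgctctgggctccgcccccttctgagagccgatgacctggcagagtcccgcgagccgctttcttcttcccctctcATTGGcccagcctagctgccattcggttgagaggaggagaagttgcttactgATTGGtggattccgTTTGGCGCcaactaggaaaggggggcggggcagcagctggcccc
CLSPN: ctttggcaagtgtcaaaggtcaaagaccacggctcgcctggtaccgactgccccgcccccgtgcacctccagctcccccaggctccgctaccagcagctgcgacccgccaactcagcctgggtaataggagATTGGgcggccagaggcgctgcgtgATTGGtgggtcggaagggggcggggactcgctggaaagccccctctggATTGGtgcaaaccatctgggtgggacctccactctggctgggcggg
CDC25C: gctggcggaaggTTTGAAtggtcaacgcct
ATM: agtcacgcagggTTTGAAccggaagcggga

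In the CDC25A window the capitals mark TTTGGCGC, one of 4 spellings searched as an E2F site (the others were TTTCCCGC, TTTCGCGC and TTTGCCGC), at bases −44 to −37 before the start, and ATTGG, the CCAAT box read from the other strand, at 2 places. In the CLSPN window ATTGG occurs at 3 places and no E2F spelling occurs. A CCAAT box on either strand was not particular to these genes, since 7 of the 9 genes searched had it in a window, ATM, which was higher, among them, and ATR and TOPBP1 were the genes without it. TTTGAA, the CHR hexamer, lies at bases −30 to −25 before a CDC25C start and at bases −20 to −15 before an ATM start. Both places lie inside the GENCODE bounds of these genes, and the other windows of CDC25C and ATM held no CHR match. CDC25C was lower and ATM higher with enzalutamide, so that the same hexamer stood before a start in genes of either direction. Of 35116 RefSeq windows of this length, 2.79% held an E2F spelling, 13.3% the CHR hexamer and 32.0% a CCAAT box. These shares are per window, whereas a gene was counted above if any of its windows held a match. The 7 of 9 genes therefore cannot be set directly against the 32.0%. The androgen half-site AGAACA, in 12.4% of all windows, was in none of the windows of these genes. These matches are descriptions of letters and not of bound sites.

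All 10 genes differed between the treatments. The 8 genes ATR, ATRIP, TOPBP1, CLSPN, CHEK1, CHEK2, CDC25A and CDC25C were lower with enzalutamide (limma, adjusted p under 0.05), against 32.7% of the 17046 genes tested, and ATM and WEE1 were higher, against 29.8%. The 8 lower genes also did not overlap between the treatments in any library, which held for 20.1% of all genes, and neither did the 2 higher genes, against 17.1%. CDC25A, CLSPN and CDC25C were lower by at least 2-fold, a difference seen in 4.19% of all genes. The median log2 fold change was −0.44 over the 10 genes and −0.01 over all genes tested. Fold changes are differences of log2(CPM + 0.5), enzalutamide minus DMSO.

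**Figure D1:**
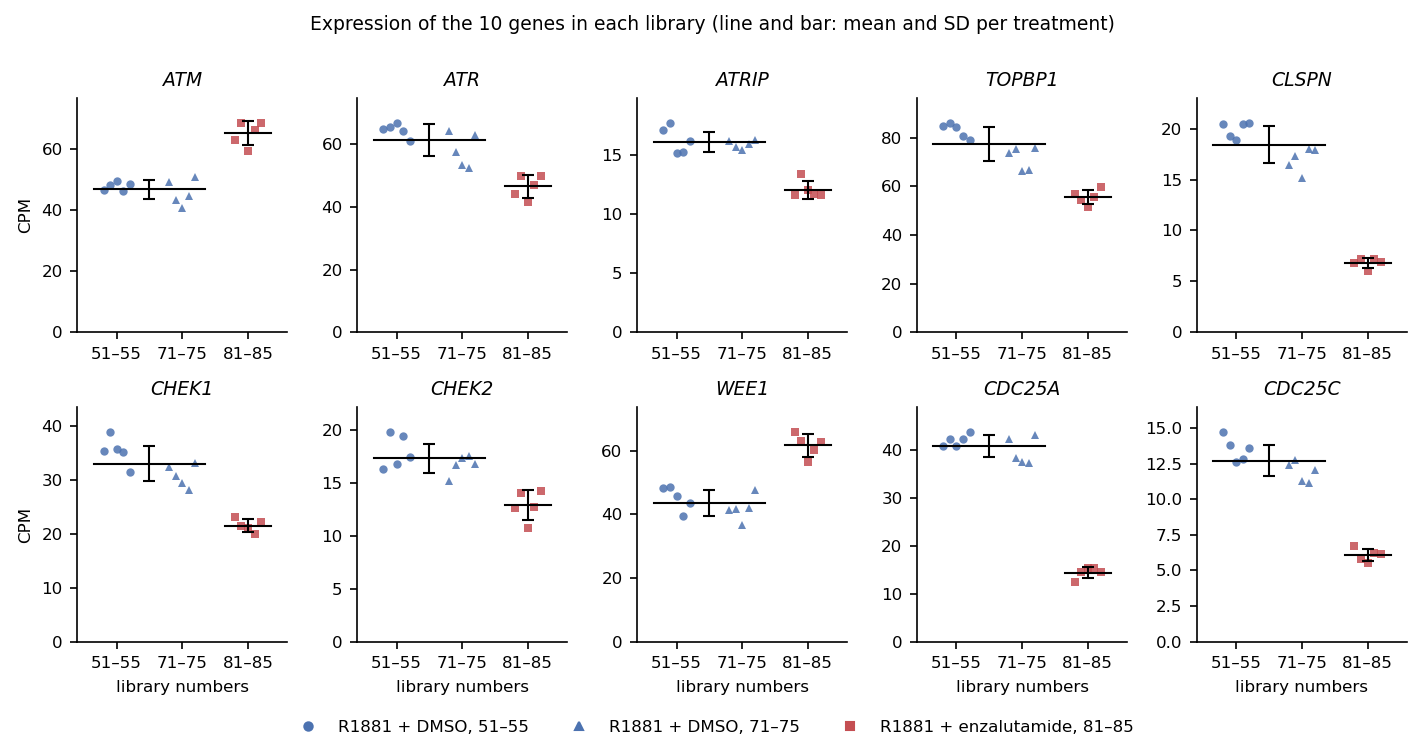
CPM of each of the 10 genes (vertical axes, from 0) in the 15 libraries, grouped by library number on the horizontal axes: R1881 + DMSO libraries 51 to 55 (circles) and 71 to 75 (triangles), and R1881 + enzalutamide libraries 81 to 85 (squares). Lines and bars are the mean and SD of each treatment, and the treatments do not overlap for any gene, with ATM and WEE1 higher and the other 8 genes lower with enzalutamide.

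Among the apical kinases, ATM and ATR moved in opposite directions. ATM (ENSG00000149311, chr11:108223044-108369102, plus strand) ranged from 40.8 to 51.0 CPM with DMSO, with a median of 47.4 CPM. With enzalutamide it was at 63.2, 68.6, 59.5, 66.3 and 68.5 CPM in libraries 81 to 85. The lowest enzalutamide library thus lay above the highest DMSO library. Mean ATM went from 46.9 ± 3.15 (SD, n = 10) to 65.2 ± 3.89 CPM (n = 5), a log2 fold change of 0.47 ± 0.051 (SE, limma, adjusted p = 6.24e-08). ATR (ENSG00000175054, chr3:142449007-142578733, minus strand) ranged from 52.6 to 66.8 CPM with DMSO, with a median of 63.6 CPM, and was at 44.3, 49.9, 41.7, 47.2 and 49.9 CPM in the enzalutamide libraries. The gap between the treatments was narrower than for ATM, since the DMSO libraries reached down to 52.6 CPM. Its log2 fold change was −0.39 ± 0.060 (SE, limma, adjusted p = 8.36e-06).

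ATRIP, the obligate partner that carries ATR to RPA-covered DNA (ENSG00000164053, chr3:48446710-48467645, plus strand), fell from 16.1 ± 0.822 to 12.1 ± 0.742 CPM, a log2 fold change of −0.40 (limma, adjusted p = 1.06e-06). The enzalutamide libraries were at 11.6, 13.4, 12, 11.7 and 11.6 CPM, all below the lowest DMSO library at 15.2 CPM. Within a library the log2 ratio of ATRIP to ATR was −1.9 ± 0.122 with DMSO and −1.9 ± 0.114 with enzalutamide. The change of −0.01 did not pass a two-sided exact permutation test over 3003 regroupings of the libraries (p = 0.880), and its sign turned with some settings, such as a pseudocount of 1. The ratio of ATR to ATM, in contrast, went from between 0.23 and 0.48 on the log2 scale to between −0.51 and −0.45. ATR was thus 1.82-fold lower relative to ATM with enzalutamide (exact permutation p = 0.000333, the smallest the regroupings allow, adjusted p over 8 ratios 0.000533). This outcome was fixed by the single genes, since ATR was lower and ATM higher in every enzalutamide library than in every DMSO library. Ratios of CPM between genes carry their lengths, and only their change between treatments was read.

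TOPBP1, the activator of ATR (ENSG00000163781, chr3:133598175-133662380, minus strand), fell from 77.2 ± 7.0 to 55.6 ± 3.03 CPM, a log2 fold change of −0.47 (limma, adjusted p = 6.72e-07). The enzalutamide libraries ranged from 51.4 to 59.7 CPM and the DMSO libraries from 66.3 to 85.9 CPM. Relative to ATR, TOPBP1 changed by −0.07 on the log2 scale, which did not pass the test (exact permutation p = 0.0783, adjusted p over 8 ratios 0.0894).

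CLSPN, which encodes the adaptor between ATR and CHK1 (ENSG00000092853, chr1:35720218-35769978, minus strand), fell much further. It ranged from 15.1 to 20.6 CPM with DMSO, with a median of 18.4 CPM, and was at 6.78, 7.17, 6.0, 7.17 and 6.87 CPM in libraries 81 to 85. Every enzalutamide library was below 8 CPM and no DMSO library was below 15.1 CPM. The mean was 2.71-fold lower, with a log2 fold change of −1.37 ± 0.072 (SE, limma, adjusted p = 5.63e-13), and 2.38% of all genes tested had a lower fold change. CLSPN rested on few reads, 129 in its lowest library, so that counting alone gives a coefficient of variation of 8.07% with enzalutamide, against 7.06% observed.

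Of the effector kinases, CHEK1 (ENSG00000149554, chr11:125625163-125676255, plus strand) ranged from 28.1 to 38.8 CPM with DMSO and was at 23.2, 21.4, 21.1, 19.9 and 22.1 CPM with enzalutamide. Its log2 fold change was −0.60 ± 0.065 (SE, limma, adjusted p = 6.58e-08). CHEK2 (ENSG00000183765, chr22:28687743-28742422, minus strand) ranged from 15.1 to 19.7 CPM with DMSO and was at 12.6, 14.1, 10.7, 12.7 and 14.2 CPM with enzalutamide, a log2 fold change of −0.42 ± 0.069 (SE, limma, adjusted p = 2.39e-05). The treatments came close to each other for CHEK2, with 14.2 CPM in its highest enzalutamide library and 15.1 CPM in its lowest DMSO library. CHEK1 relative to CHEK2 changed by −0.18 on the log2 scale, with overlapping treatments, and missed the threshold after adjustment (exact permutation p = 0.0450, adjusted p over 8 ratios 0.0599). Without single libraries this adjusted p lay between 0.0226 and 0.153. CLSPN fell more than CHEK1, whose kinase it presents to ATR, since the log2 ratio of CLSPN to CHEK1 went from between −0.99 and −0.60 to between −1.73 and −1.41. This was a 1.70-fold decrease (exact permutation p = 0.000333, adjusted p over 8 ratios 0.000533).

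Of the switches on cyclin-dependent kinases, both phosphatases fell and the kinase WEE1 rose. CDC25A, the phosphatase that acts at entry into and passage through S phase (ENSG00000164045, chr3:48157146-48188417, minus strand), ranged from 37.1 to 43.6 CPM with DMSO, with a median of 41.4 CPM. In libraries 81 to 85 it was at 12.4, 14.4, 15.3, 15.3 and 14.5 CPM. The median fell by 65.1%, and the log2 fold change was −1.47 ± 0.054 (SE, limma, adjusted p = 1.33e-15), lower than in all but 2.07% of genes tested. CDC25C, the phosphatase that acts at entry into mitosis (ENSG00000158402, chr5:138285269-138338355, minus strand), ranged from 11.1 to 14.7 CPM with DMSO and was at 6.69, 5.77, 5.54, 6.23 and 6.15 CPM with enzalutamide. Its log2 fold change was −1.0 ± 0.068 (SE, limma, adjusted p = 4.70e-11), and 4.13% of genes tested were lower. CDC25C had the fewest reads of the 10 genes, 119 in its lowest library, and its spread with enzalutamide (7.31%) was no larger than that of counting (8.54%).

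WEE1, the kinase that opposes these phosphatases (ENSG00000166483, chr11:9573670-9593457, plus strand), went the other way. It ranged from 36.8 to 48.5 CPM with DMSO, with a median of 42.7 CPM, and was at 65.7, 63.2, 56.4, 60.3 and 62.8 CPM with enzalutamide. No library of either treatment lay between 48.5 and 56.4 CPM. The mean was 1.42-fold higher, a log2 fold change of 0.50 ± 0.060 (SE, limma, adjusted p = 3.13e-07).

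**Figure D2:**
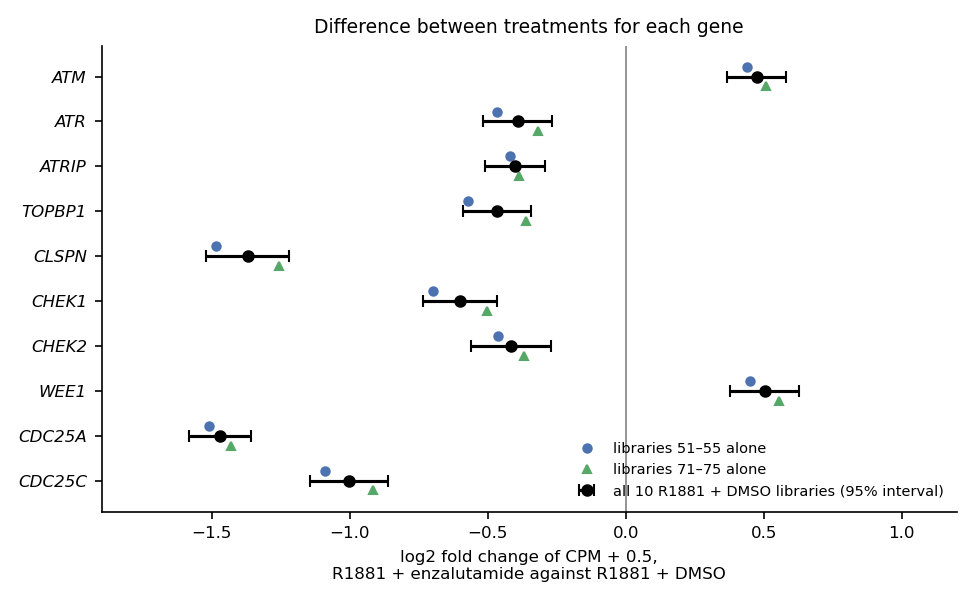
Log2 fold change of CPM + 0.5 between R1881 + enzalutamide and R1881 + DMSO (horizontal axis) for each gene, with the 95% interval of the limma fit on all 10 DMSO libraries (black), and the value against DMSO libraries 51 to 55 alone (circles) or 71 to 75 alone (triangles). No interval reaches 0, from −1.47 for CDC25A to 0.50 for WEE1.

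Phosphatases and kinase moved apart, and the ratios of the phosphatases to WEE1 within a library showed wider changes than any of the 10 genes alone. The log2 ratio of CDC25A to WEE1 lay between −0.25 and 0.09 in the DMSO libraries and at −2.36, −2.09, −1.84, −1.95 and −2.08 in the enzalutamide libraries. CDC25A was thus 3.93-fold lower relative to WEE1, a change of −1.97. CDC25C was 2.84-fold lower relative to WEE1, a change of −1.51, with the 5 enzalutamide libraries between −3.34 and −3.18. CDC25A also fell relative to CDC25C, by 0.47 on the log2 scale. In all 3 ratios the treatments did not overlap (exact permutation p = 0.000333 for each, adjusted p over 8 ratios 0.000533). For the ratios to WEE1 this outcome was fixed by the single genes. Each phosphatase was lower, and WEE1 higher, in every enzalutamide library than in every DMSO library. Their p-values therefore add nothing to the single-gene results. Of the 8 ratios examined, 5 passed the adjusted threshold, among them both ratios to WEE1 and ATR to ATM, whose outcomes were fixed in this way.

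**Figure D3:**
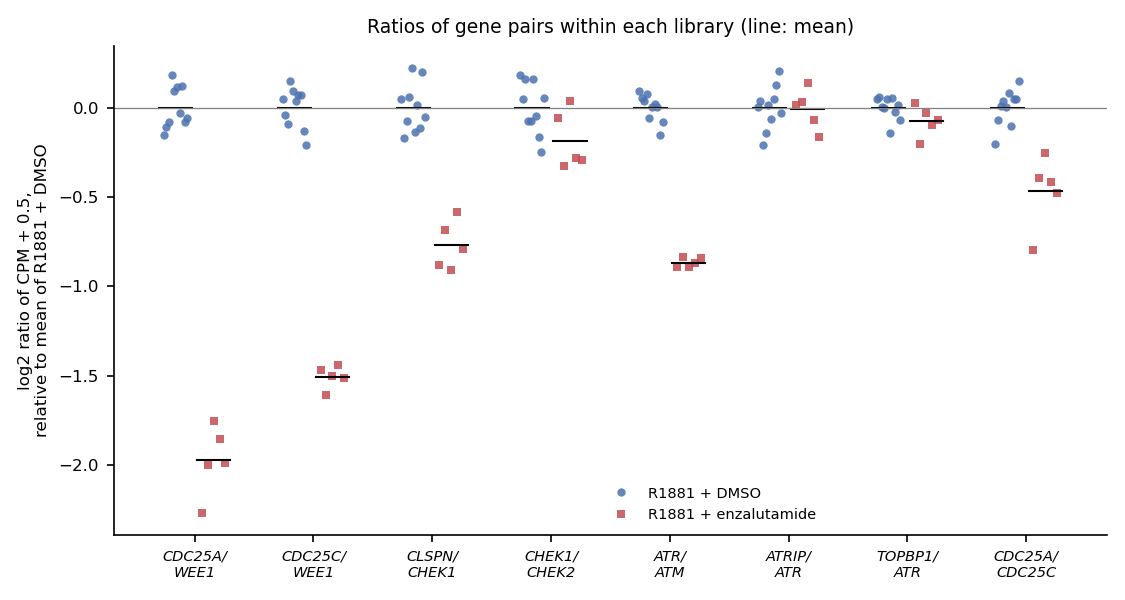
Log2 ratio of the CPM + 0.5 of gene pairs (vertical axis, relative to the mean of the R1881 + DMSO libraries) within each R1881 + DMSO (circles) and R1881 + enzalutamide library (squares), with lines at the means. The pairs on the horizontal axis include CDC25A to WEE1, lower by 1.97, and ATRIP to ATR, where the treatments overlap.

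Levels can be set side by side between genes only per length. Per kilobase of merged exons, TOPBP1 was highest with DMSO (10.5 ± 0.954 CPM per kilobase), followed by CDC25A (9.82 ± 0.566), CHEK1 (5.90 ± 0.582), WEE1 (4.70 ± 0.430), CHEK2 (3.85 ± 0.309), CDC25C (3.82 ± 0.333), ATRIP (2.96 ± 0.151), ATR (2.25 ± 0.187), CLSPN (1.92 ± 0.191) and ATM (1.2 ± 0.0803). The ranges of TOPBP1 and CDC25A overlapped, as did those of CHEK1 and WEE1, of WEE1 and CHEK2, of CHEK2 and CDC25C, and of ATR and CLSPN. With enzalutamide, WEE1 came second (6.67 ± 0.382), next to TOPBP1 (7.57 ± 0.413) with overlapping ranges, CDC25A came after CHEK1 (3.47 ± 0.286 and 3.84 ± 0.219) and CLSPN last (0.709 ± 0.05). ATM was ninth, at 1.66 ± 0.0992 CPM per kilobase. The place of ATM depends on the length used, since its annotated exons merge to 39184 bases and its longest transcript has 13130. Per kilobase of the longest transcript, CLSPN was lowest in both treatments, and with enzalutamide WEE1 (11.9 ± 0.681) was above TOPBP1 (9.03 ± 0.492) and CDC25A seventh (3.74 ± 0.309).

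The numbers in the sample descriptions divide the DMSO libraries into 51 to 55 and 71 to 75, without saying what the numbers mean. All 10 genes had a lower mean in 71 to 75. TOPBP1 alone passed the test, with 82.9 ± 2.87 CPM in 51 to 55 and 71.5 ± 4.59 CPM in 71 to 75 (log2 difference −0.21, limma, adjusted p = 0.0239), where 3.71% of all genes were called in either direction. This call was lost without any of R1881 + DMSO replicates 5, 6, 7, 9 or 10 (limma, adjusted p between 0.0649 and 0.0760). CLSPN (−0.23, limma, adjusted p = 0.0540) and CHEK1 (−0.19, adjusted p = 0.0735) missed the threshold, which they passed without enzalutamide replicate 2 and without DMSO replicate 4 respectively (limma, adjusted p = 0.0301 and 0.0416). Against either set of DMSO libraries alone, each of the 10 genes kept its direction and its call. The enzalutamide libraries form a further numbered set, and no set holds both treatments. These comparisons therefore cannot separate the treatment from the numbered set, and the part of the set in the fold changes was not tested. The log2 fold change of CLSPN was −1.48 against 51 to 55 and −1.26 against 71 to 75, and that of TOPBP1 was −0.57 and −0.36. ATM, at 0.44 and 0.51, and WEE1, at 0.45 and 0.56, were higher against both.

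The partners of the 10 genes were described by lists. Counts in these lists and in the phase lists below stand against 32.7% of all genes tested called lower and 29.8% higher. Of 9 genes that sense break ends and recruit ATM, 3 were lower and 1 higher, with a median log2 fold change of −0.04. The count of lower genes was thus near the share over all genes. The complex that brings ATM to breaks did not pass the test, with log2 fold changes of −0.14 for MRE11, −0.04 for RAD50 and −0.04 for NBN (limma, adjusted p = 0.0624, 0.471 and 0.472). H2AX, the histone variant that ATM phosphorylates at breaks, was lowest in this list, from 34.8 ± 5.40 to 18.2 ± 3.01 CPM (log2 fold change −0.92), and MDC1, which binds the phosphorylated histone, fell by 0.60 on the log2 scale. RNF8, a ubiquitin ligase recruited by MDC1, rose from 16.7 ± 0.780 to 21.4 ± 1.26 CPM (log2 fold change 0.35).

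Of 17 genes of the platform on which ATR is loaded and switched on, 16 had a row, and 11 were lower and none higher, with a median of −0.27. The lowest was RFC5, a subunit shared by clamp loaders, from 42.0 ± 3.77 to 24.9 ± 1.38 CPM (log2 fold change −0.74). HUS1, of the clamp that binds TOPBP1, fell by 0.48 on the log2 scale, and TIMELESS, a partner of claspin at the fork, by 0.59. RAD17, which loads the clamp (0.07, limma, adjusted p = 0.205), ETAA1, another activator of ATR (−0.01, adjusted p = 0.949), and RPA1, the large subunit of RPA (−0.08, adjusted p = 0.0739), did not pass the test. Of these, RAD17 was called by edgeR (adjusted p = 0.0301).

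Of 11 genes of the PI3K-related kinase family or for its maturation, 8 were lower and 1 higher, with a median of −0.27. MTOR, the growth-regulating kinase of the family, was lowest, from 144.6 ± 5.87 to 71.4 ± 2.97 CPM (log2 fold change −1.01). The highest was RPAP3, of the chaperone complex that matures these kinases, at 0.12. ATM, with a log2 fold change of 0.47, was outside the range of the family members in the list, among them PRKDC (−0.18), TRRAP (−0.13) and SMG1 (0.01, limma, adjusted p = 0.872).

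All 10 genes listed for cyclin-dependent kinases and their direct switches were lower, with a median log2 fold change of −0.78. CDK2, the S phase kinase that CDC25A activates, was lowest, from 97.4 ± 4.08 to 43.5 ± 3.21 CPM (log2 fold change −1.16), and CCNE1, one of its cyclins, changed least, by −0.25. CDK1, the mitotic kinase, went from 271.1 ± 29.7 to 145.7 ± 12.1 CPM. PKMYT1, which places an inhibitory phosphate on CDK1 as WEE1 does, was lower (6.67 ± 1.62 and 2.90 ± 0.509 CPM, log2 fold change −1.06), whereas WEE1 was higher. CDC25B, the remaining phosphatase of the family, fell by 0.39 on the log2 scale.

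Among 10 genes for the turnover of claspin, CDC25A and WEE1 proteins, 4 were lower and none higher, with a median of −0.06. Over all genes tested, 32.7% were lower, which is near the count of lower genes here, and 29.8% higher. CSNK1A1, a casein kinase that marks proteins for degradation, was lowest (log2 fold change −0.53), and USP7, a deubiquitinase, fell by 0.46 on the log2 scale. The ubiquitin ligase subunit BTRC, which recognizes CDC25A and WEE1, did not pass the test (0.09, limma, adjusted p = 0.107), although edgeR called it (adjusted p = 0.0155). Its close relative FBXW11 fell by 0.40. Of 7 genes for 14-3-3 proteins, which hold phosphorylated CDC25C in the cytoplasm, 6 had a row and 5 were lower, with a median of −0.27 and YWHAQ lowest at −0.64.

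Further genes downstream of ATM and CHK2 were not uniform. CDKN1A, the cyclin-dependent kinase inhibitor, went from 87.0 ± 4.42 to 115.5 ± 8.99 CPM (log2 fold change 0.40, limma, adjusted p = 1.32e-07). PPM1D, a phosphatase that switches off ATM and its substrates, went from 46.4 ± 2.16 to 20.5 ± 1.56 CPM (log2 fold change −1.16, limma, adjusted p = 9.66e-15).

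Lists of genes expressed in S phase and in G2/M phase moved together with the fall of CLSPN, CDC25A and CDC25C. Any of the 10 genes that these lists held had been taken out. Of 42 S phase genes, 40 were lower and none higher (median −0.81), and their summed level went from 2477 to 2967 CPM with DMSO to 1347 to 1505 CPM with enzalutamide. Of 53 G2/M genes, 52 were lower and 1 higher (median −0.87), with sums of 3614 to 4300 CPM and 2376 to 2578 CPM. The part of cell cycle phase in the values of the 10 genes was not tested.

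**Figure D4:**
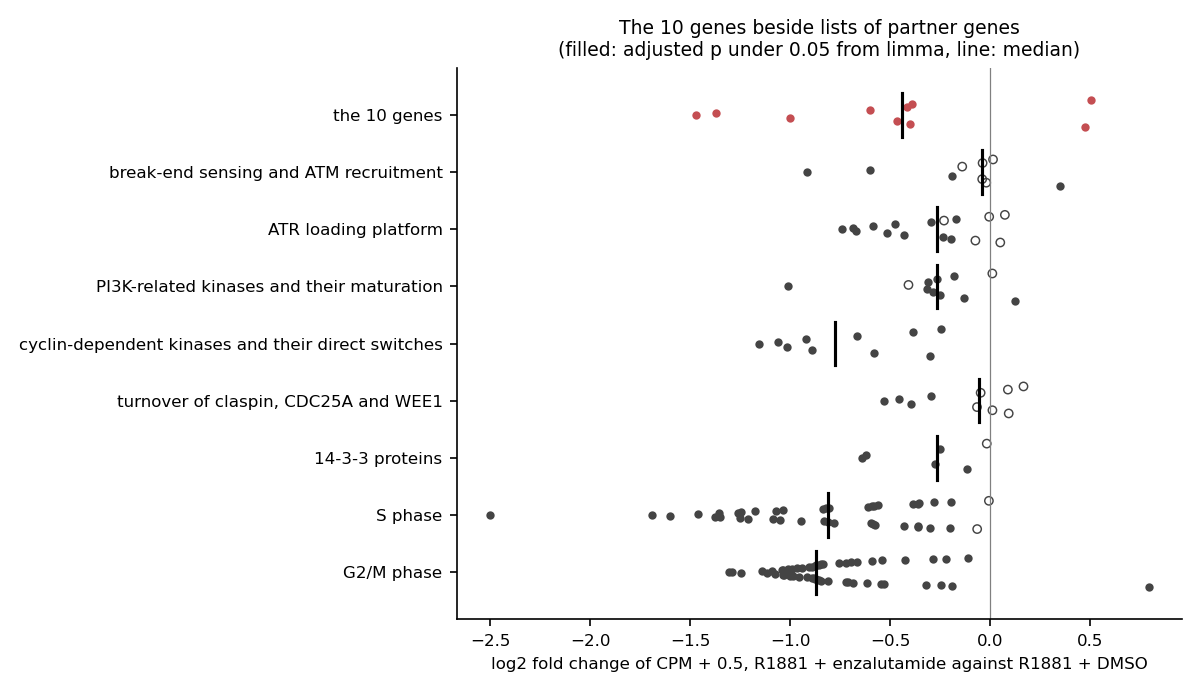
Log2 fold change of CPM + 0.5, R1881 + enzalutamide against R1881 + DMSO (horizontal axis), of the 10 genes (red, top row) and of the genes in the 8 lists drawn (black, 1 row per list). Filled points have an adjusted p under 0.05 (limma), and vertical lines are medians, among these 8 lists from −0.87 for the G2/M genes to −0.04 for the genes that sense break ends.

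Some of the 10 genes lie close to or overlap others, and the use of strand in read counting was not stated by the sources used here. NPAT, a regulator of histone genes that starts 406 bases from ATM in the opposite direction, did not pass the test (33.3 ± 2.97 and 36.2 ± 2.97 CPM, log2 fold change 0.12, limma, adjusted p = 0.114), although edgeR called it (adjusted p = 0.0241). C11orf65, which overlaps ATM on the other strand, was low, at 1.91 ± 0.364 and 2.42 ± 0.512 CPM. TREX1 shares 1448 exon bases with ATRIP on the same strand and had no row, so that the ATRIP values are uncertain to that extent. STT3A, a subunit of oligosaccharyltransferase, shares 53 exon bases with CHEK1 on the same strand and was also lower (377.1 ± 18.5 and 240.7 ± 9.90 CPM, log2 fold change −0.65), and ACRV1, on the other strand, was at 0.464 ± 0.114 and 1.03 ± 0.303 CPM. HSCB shares 293 bases with CHEK2 in the opposite direction and did not pass the test (−0.05, limma, adjusted p = 0.604). FAM53C shares 293 bases with CDC25C in the opposite direction, was at 133.1 ± 4.08 and 107.9 ± 2.63 CPM and fell by 0.30 on the log2 scale. CHEK2 has 8 annotated pseudogenes, 2 of them with a row, and WEE1 has 2, which makes their counts uncertain where reads fit both copies.

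The genes whose log2 values ran most like those of each gene over the 15 libraries were sought among 12163 genes with a mean of at least 5 CPM. These correlations span both treatments and mostly follow the difference between them, and they are given as a description. CLSPN ran with H2AFZ, a histone variant (Pearson r 0.996), and CDCA8, a mitotic chromosome protein (0.995), and CDC25C with PRIM2 and RRM2, which serve DNA synthesis (0.995 and 0.994). CDC25A ran with TMEM164 and LAMC1 (0.996 each), TOPBP1 with ARHGAP11A and KPNA3 (0.993 each), CHEK1 with RACGAP1 and CTNNA1 (0.984 and 0.983) and ATR with NUP50 and CLTC (0.99 and 0.987). For ATM the closest were DIS3L and GTF2IP1 (0.985 each), and for WEE1 CCDC59 and AP1AR (0.980 each). CHEK2 ran with CDR2 at 0.929, and ATRIP with RP11-61N20.3 at 0.974 and BNIP3P1 at 0.968.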

How the data were processed

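Polyadenylated RNA of LNCaP cells was sequenced in 15 libraries. Per the labels and methods, reads were aligned to GRCh38 (STAR) and assigned to genes (featureCounts), and the authors deposited a scaled signal for each gene, called CPM. Tool versions other than bcl2fastq 2.17, the gene annotation and the scaling were not stated. The columns summed to between 985580 and 1078567, and 100% of values were whole multiples of 1 read (tolerance 0.01 reads), so that reads could be recovered. The sums split by treatment, with at most 1.009e+06 in an enzalutamide column and at least 1.053e+06 in a DMSO column. All 55 pairs of libraries of a treatment differed by more than sampling noise (chi-square per degree of freedom at least 1.64). Groups were taken from the labels, since the methods text gives the group sizes the other way round.

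Of 17272 genes, the 17046 with mean CPM of 0.5 or more were tested with limma 3.58.1 in R 4.3.3 (mean-variance trend on log2(CPM + 0.5), Benjamini-Hochberg adjustment, threshold 0.05), and the recovered reads were tested with edgeR 4.0.16 and DESeq2 1.42.0 instead, as alternatives. The unit was CPM with another scaling than the plain one, and the test planned for CPM was kept. On data simulated from the means and depths of these libraries, 99% of 200 genes changed 2-fold were called, and 5 of the unchanged ones among 17046. The simulated counts were independent, with the same added spread for every gene and no difference between numbered sets. Far fewer genes were changed in them than were called here, so this check does not cover such features of the data. Ratios were tested by two-sided exact permutation. Positions and lengths are from GENCODE v44 (GRCh38), promoter windows from RefSeq, and phase lists from Seurat 5.3.0. MRE11 and H2AX had rows under older symbols.

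The genes and lists were chosen with earlier results of these data known. Named were the 10 genes, their overlapping or head to head protein-coding neighbours, the lowest and highest called gene of each list, androgen targets and the 2 most alike genes of each. Some genes that this rule names are not reported here. Other names were chosen after their values were seen. The replicate numbers were not used to pair libraries.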

Additional observations from a re-analysis of the deposited data

Results flagged for a closer look

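In 38 groups of 5 to 10 values, a single library stood well apart in 2, where chance gives about 1 in 20 groups (1.9 of 38). The CPM of ATRIP was 13.4 in R1881 + enzalutamide replicate 1, above the 11.6 to 12 of the other 4 libraries and below every R1881 + DMSO library. The total of R1881 + enzalutamide replicate 5 was 25416052 reads, above the 21188661 to 22329140 of the other 4. In that library CHEK1 (19.9 CPM) was the lowest of the 5. CLSPN was at 7.17 CPM, level with replicate 1 at the top of the 5, and the other 8 genes lay within the range of the remaining libraries.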

How the results depend on the processing

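The direction and call of each of the 10 genes held in all 13 fits with other settings and in all 15 without a single library. Log2 fold changes went from 0.44 to 0.57 for ATM and from −1.51 to −1.38 for CDC25A. Genes called over the table numbered 5577 lower and 5083 higher, and 4288 lower and 6629 higher with library totals set equal, which moved the median of all genes by 0.091. With a replicate block on the title number 5261 were lower and 4787 higher, and with the last digit of the library number 5628 and 5092. Deviations of same-numbered libraries correlated at −0.068 to 0.074 for the title and −0.218 to 0.62 for the last digit, and 0 and 2 of 5 enzalutamide libraries were closest to their own number, so that the numbers were not taken to pair them. No member call changed with either block.

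The ratio of ATRIP to ATR changed sign around 0, with 0.00065 at a pseudocount of 1, 0.0494 against DMSO libraries 51 to 55 alone, 0.0331 with the GC trend removed, and −0.0465 to 0.0291 without single libraries. TOPBP1 to ATR passed the threshold against libraries 51 to 55 alone (−0.11), with −0.100 to −0.0422 without single libraries, and CHEK1 to CHEK2 ranged from −0.24 to −0.15 without single libraries. The other 5 ratios kept their direction and call. Genes called between DMSO libraries 71 to 75 and 51 to 55 ranged from 60 to 805 lower and 28 to 312 higher without single libraries (471 and 161 with all), fewest without DMSO replicate 9 and most without enzalutamide replicate 2. Of 20 levels per kilobase, 19 moved by more than their SD with the longest transcript. Low read numbers limit CLSPN and CDC25C most. The cause of these changes was not tested.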
